A study of Mus musculus with 18 samples.

Results

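The ELR CXC chemokines are small secreted proteins that carry a Glu-Leu-Arg motif before the CXC cysteine pair and draw neutrophils out of the blood. The members read here were the 5 mouse genes Cxcl1, Cxcl2, Cxcl3, Cxcl5 and Ppbp, out of 22485 genes with a level on the arrays. They were chosen by name from the neutrophil-attracting chemokines and need not be all of them. All 5 were measured, each by 1 probe.

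RNA levels were read in macrophages grown from mouse bone marrow with the growth factor M-CSF (10 ng/ml for 7 days), on 18 Agilent two-colour arrays of 500 ng RNA each. Mice were 8 to 10 weeks old. Knockout cells were labelled Nrf2-/- and wild-type cells Nrf2+/+. Nrf2, listed on the array as Nfe2l2, is the gene of NRF2, the transcription factor that responds to electrophiles and to heme. The groups were knockout cells given heme-albumin (200 µM heme) and LPS (5 arrays), wild-type cells given heme-albumin and LPS (3 arrays), knockout cells given LPS (4 arrays), wild-type cells given LPS (3 arrays) and wild-type cells given albumin alone (3 arrays). LPS, the lipopolysaccharide of Gram-negative bacteria that activates macrophages through TLR4, was used at 10 ng/ml for 4 h. Heme-albumin or albumin was given for 4 h, and in the combined groups before LPS. The labels give the heme groups 4 h of each agent and the LPS groups 4 h of LPS with no albumin named, so time in culture and albumin may differ between them. Every value is the log2 ratio of a sample, in Cy5, to a pool of untreated macrophages, in Cy3, of unstated genotype. All 5 groups were grown in M-CSF, and none stands for macrophages taken from a tissue.

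In mice, ELR CXC chemokines act on CXCR2, the receptor by which neutrophils follow them into inflamed tissue, and they bind heparan sulfate on the vessel wall. Macrophages release CXCL1, CXCL2 and CXCL3 within hours of TLR4 signalling through NF-kB, while CXCL5 is best known from epithelial cells and Ppbp, the precursor of CXCL7, from platelets. In annotation order on mouse chromosome 5 the genes stand as Cxcl5, Ppbp, Pf4, Cxcl3, Cxcl15, Cxcl1 and Cxcl2. Pf4 and Cxcl15 are the neighbouring chemokine genes of that cluster that were not among the members.

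The promoters of 4 of the 5 members had an entry in the RefSeq table (build GRCm38.p6). They are shown so that the letters before members that responded differently in these cells can be set side by side. Each run is the 250 bases before the annotated start on the + strand, 5′ to 3′, with GGGAATTTCCC, the longest run that Cxcl1, Cxcl2 and Cxcl3 share, and the TATA box TATAAA in capitals. The 11-base run has the form of an NF-kB site. The windows are chr5:90890995-90891244 for Cxcl1, chr5:90903649-90903898 for Cxcl2, chr5:90785851-90786100 for Cxcl3 and chr5:90768268-90768517 for Ppbp.
Cxcl1: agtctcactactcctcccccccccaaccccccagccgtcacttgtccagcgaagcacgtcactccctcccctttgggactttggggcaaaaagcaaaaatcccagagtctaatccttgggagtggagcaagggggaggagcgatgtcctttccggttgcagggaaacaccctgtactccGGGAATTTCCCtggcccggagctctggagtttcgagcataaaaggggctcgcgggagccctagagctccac
Cxcl2: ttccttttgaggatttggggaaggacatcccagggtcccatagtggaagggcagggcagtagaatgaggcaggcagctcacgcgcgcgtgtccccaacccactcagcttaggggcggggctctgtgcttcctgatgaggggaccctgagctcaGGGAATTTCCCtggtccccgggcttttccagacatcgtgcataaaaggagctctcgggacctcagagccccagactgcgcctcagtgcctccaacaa
Cxcl3: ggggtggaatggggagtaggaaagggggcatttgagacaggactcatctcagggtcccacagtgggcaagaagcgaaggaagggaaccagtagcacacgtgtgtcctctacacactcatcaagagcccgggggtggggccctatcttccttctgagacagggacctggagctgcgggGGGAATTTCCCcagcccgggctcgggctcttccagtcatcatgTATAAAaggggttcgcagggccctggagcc
Ppbp: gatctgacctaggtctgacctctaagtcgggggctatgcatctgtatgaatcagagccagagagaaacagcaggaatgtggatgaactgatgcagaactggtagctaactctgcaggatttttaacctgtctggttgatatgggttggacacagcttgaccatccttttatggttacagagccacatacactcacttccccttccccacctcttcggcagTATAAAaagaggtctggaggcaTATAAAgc

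The run GGGAATTTCCC, searched like the others on both strands, began 71 bases before the start of Cxcl1, 97 before that of Cxcl2 and 73 before that of Cxcl3. It was not in the Ppbp window. Of 32851 promoter windows of this length in the table, 14 held it, or 0.0426%. TATAAA stood 30 bases before the start of Cxcl3 and 30 and 8 before that of Ppbp, and 12.4% of windows held it. The Cxcl1 and Cxcl2 windows hold CATAAA after the shared run, which differs only in its first letter. The exact search did not count it. TGANTCA, a loose form of the AP-1 element with its centre base left free, was found only in Ppbp among these 4, against 6.75% of all windows. It began 204 bases before the start and reads TGAATCA, while the usual element has C or G at the centre. This match is therefore not a strict AP-1 site. Neither the antioxidant response element TGACNNNGC, the kind that NRF2 binds and that 10.2% of windows held, nor the C/EBP element TTNNGCAA, which 9.56% held, was in any of the 4 windows. The shared run was picked because these 3 windows hold it, the other letters were chosen after the windows had been read, and all cover this stretch only.

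Array quality and the label check were as follows. Nfe2l2 itself was listed at 0 on all 9 knockout arrays, and averaged 0.64 ± 0.46 in wild-type heme and LPS cells against −0.29 ± 0.40 in wild-type LPS cells (log2 ratio, SD, n = 3 each). It was also listed at 0 on wild-type albumin arrays b and c, so a 0 for this gene was not particular to knockout arrays. Whether its probe lies in the deleted part is not stated. A value of exactly 0 can be a feature the authors' processing did not score: such values made up 17.9% to 48.8% of an array's features. The 4 LPS-treated arrays lettered a had the highest shares, 44.3% to 48.8%, and the other arrays at most 41.3%. Arrays of a group correlated at 0.64 to 0.89 over all genes, apart from the albumin group at 0.55 to 0.58, and no arrays were identical.

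LPS alone raised Cxcl1, Cxcl2 and Cxcl3 in wild-type cells, as the plot of all arrays shows. Cxcl1, known as KC in mice, had log2 ratios of 5.91, 7.81 and 7.62 in LPS cells, against 1.57, 0.53 and 0.63 in albumin cells. Cxcl2, or MIP-2, had 6.26, 6.40 and 6.41 in LPS cells, against −1.23, −0.92 and −0.85 in albumin cells. Every LPS array was far above every albumin array for both genes. In limma's moderated test over all 18 arrays with Benjamini-Hochberg adjustment over all genes, Cxcl1 was 73.7-fold higher (log2 difference 6.20 ± 0.53, SE; adjusted p = 1.09e-06) and Cxcl2 164-fold higher (7.36 ± 0.57; adjusted p = 4.67e-07).

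Cxcl3, the close relative of Cxcl2 also called DCIP-1, was listed at 0 on all 3 albumin arrays and had 2.49, 6.40 and 5.81 with LPS. Its array lettered a was well below the other LPS arrays. The difference of 4.90 ± 1.58 passed at an adjusted p of 0.0305, but did not without any 1 albumin array (0.0700 to 0.0712) or without LPS array b (0.114) or c (0.0955). Cxcl5, the chemokine also called LIX, was listed at 0 on the albumin arrays and had 0, 2.86 and 4.62 with LPS. Its adjusted p was 0.0771, and it passed (0.00594) without LPS array a, the array listed at 0. It also passed with array weights (2.87; adjusted p = 0.00264) and when genes at 0 on more than 9 arrays were dropped (0.0482). Ppbp had 0.35, −0.43 and 0.08 with LPS, against 0.11, −0.01 and 0.06 with albumin, and the 2 groups overlapped (adjusted p = 0.989). Thus 3 of the 5 members were called higher with LPS and none lower, where 12.3% of all genes were called higher and 16.3% lower. The median log2 difference was 4.90 over the 5 members and 0 over all genes.

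The probes of Cxcl1, Cxcl2 and Cxcl3 could share signal, since these genes are near-identical in part of their length and the probe sequences were not used here. In these bulk cultures a rise in RNA per cell and a rise in the number of cells that make it cannot be told apart.

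**Figure D1:**
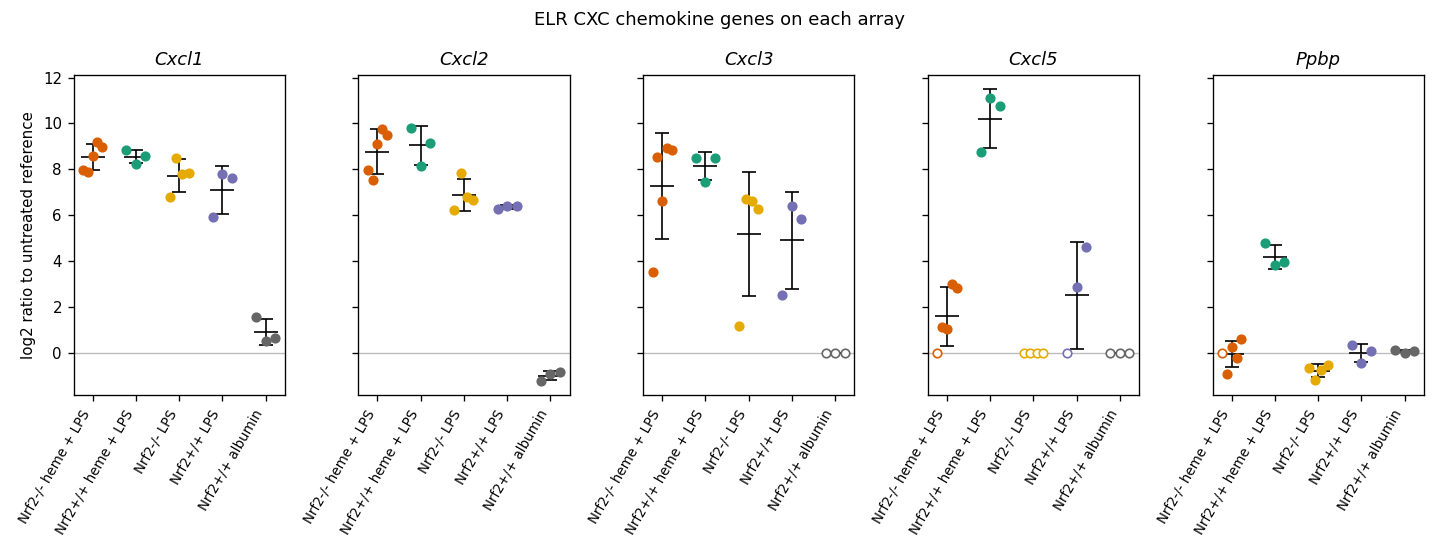
Log2 ratio to untreated macrophages of each member gene on every array (y axis), by group (x axis). Points are arrays, open points are arrays listed at 0, and bars give the mean ± SD. Cxcl1, Cxcl2 and Cxcl3 are high in all 4 LPS-treated groups, whereas Cxcl5 and Ppbp are highest in the wild-type cells given heme and LPS, where their means are 10.20 and 4.19.

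Heme before LPS raised 3 members above their level with LPS alone in wild-type cells. The differences of Cxcl5 and Ppbp, the pair not called for LPS against albumin, were the largest of the 5. Ppbp had 4.78, 3.83 and 3.95 with heme and LPS, against 0.35, −0.43 and 0.08 with LPS alone. All 3 heme arrays stood more than 3 log2 units above the highest LPS array. The difference was 4.19 ± 0.34 (18.2-fold; adjusted p = 2.28e-06), and by array letter it was 4.44, 4.26 and 3.87. The letters did not mark pairs in this comparison.

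Cxcl5 had 8.73, 11.11 and 10.77 with heme and LPS, against 0, 2.86 and 4.62 with LPS alone. The groups did not overlap, although the LPS arrays were spread widely. The difference was 7.71 ± 0.99 (adjusted p = 0.0001), and it just missed the threshold when only these 2 groups entered the fit (0.0519). The SE of 0.99 pools the spread of all groups. Cxcl5 had an SD of 0 in the albumin and knockout LPS groups, against 1.28 with heme and LPS and 2.33 with LPS in wild-type cells.

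Cxcl2 had 9.82, 8.15 and 9.16 with heme and LPS, against 6.26, 6.40 and 6.41 with LPS alone. The LPS arrays were tightly grouped and all below the heme arrays. The gene was 6.44-fold higher (2.69 ± 0.57; adjusted p = 0.00444), but the difference was 2.25 with an adjusted p of 0.0559 once the 4 LPS-treated arrays of letter a were left out.

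Cxcl1 and Cxcl3 did not pass. Cxcl1 had 8.84, 8.24 and 8.59 with heme and LPS, against 5.91, 7.81 and 7.62 with LPS alone. All heme arrays were above all LPS arrays, by 0.43 between those lettered b and by 2.94 between those lettered a. The mean difference was 1.45 ± 0.53 (95% interval 0.315 to 2.58; adjusted p = 0.0914). Cxcl3 had 8.49, 7.43 and 8.51 with heme and LPS, against 2.49, 6.40 and 5.81 with LPS alone. Its groups did not overlap either, and its difference of 3.24 ± 1.58 had a 95% interval of −0.147 to 6.63 (adjusted p = 0.242). In all, 3 of 5 members were called higher, where 8.34% of all genes were called higher and 6.35% lower. The arrays of the 2 groups did not overlap, with heme higher, for all 5 members and for 12.9% of all genes.

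Set against albumin, wild-type cells given heme and LPS had all 5 members called higher, where 12.9% of genes were. The log2 differences were 7.65 for Cxcl1, 10.04 for Cxcl2, 8.15 for Cxcl3, 10.20 for Cxcl5 and 4.14 for Ppbp (adjusted p 4.21e-08 to 0.00144). Cxcl3 and Cxcl5 were listed at 0 on all albumin arrays, so no fold is given for them. The 2 wild-type heme comparisons share the heme arrays, and both LPS comparisons share the LPS arrays.

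In knockout cells heme before LPS left Cxcl5 and Ppbp low. Ppbp had 0.00, −0.92, 0.26, −0.25 and 0.57 in knockout cells given heme and LPS, against −0.69, −1.19, −0.78 and −0.52 in knockout cells given LPS. The groups overlapped, and the difference of 0.73 ± 0.28 did not pass (adjusted p = 0.164), except without heme array b (0.94; adjusted p = 0.0349). Between arrays of the same letter, the heme array was the higher one for all 4 letters, by 0.27 to 1.03. Heme array a, however, was listed at exactly 0 and may be unscored.

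Cxcl5 had 0, 1.10, 1.03, 3.01 and 2.83 in knockout cells given heme and LPS, and was listed at 0 on all 4 knockout LPS arrays. The 4 heme arrays above 0 were all under the lowest wild-type heme array, and the difference was 1.59 ± 0.82 (adjusted p = 0.354).

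Cxcl2 did pass in knockout cells. It had 7.98, 7.52, 9.10, 9.76 and 9.51 with heme and LPS, against 6.22, 7.84, 6.78 and 6.67 with LPS alone. The groups overlapped through the arrays lettered b, where the LPS array was the higher by 0.32. The gene was 3.73-fold higher (1.90 ± 0.47; adjusted p = 0.0235). With the letters as replicate blocks the difference was 1.72 and no longer passed (adjusted p = 0.0677, or 0.131 with the block over the LPS-treated arrays alone). It also missed the threshold without heme array c, d or e or without LPS array a, c or d (adjusted p 0.0515 to 0.088), without the arrays of letter a (0.0541) and with only these 2 groups in the fit (0.133).

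Cxcl1 had 7.99, 7.90, 8.58, 9.17 and 8.96 in knockout cells given heme and LPS, against 6.77, 8.51, 7.77 and 7.83 in those given LPS. These overlapped and the difference was 0.80 ± 0.43 (95% interval −0.131 to 1.73; adjusted p = 0.396). Cxcl3 had 3.51, 8.56, 6.63, 8.91 and 8.85 with heme and LPS, against 1.14, 6.70, 6.60 and 6.29 with LPS alone. In both of these groups the array lettered a was the lowest, and the difference was 2.11 ± 1.30 (adjusted p = 0.491). So 1 of 5 members was called higher with heme in knockout cells, where 4.1% of all genes were called higher and 2.67% lower.

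**Figure D2:**
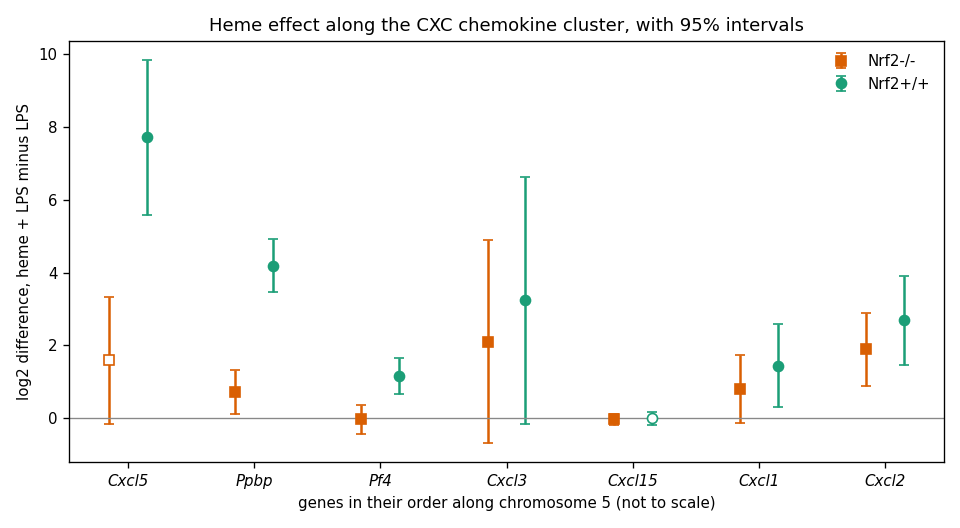
Log2 difference between heme with LPS and LPS alone (y axis) for the chemokine genes in their order on chromosome 5 (x axis), in knockout and wild-type cells. Points are limma estimates with 95% intervals, and open points are genes listed at 0 on all arrays of the LPS group. For Cxcl5, Ppbp and Pf4 the differences are 1.59, 0.73 and −0.03 in knockout cells, against 7.71, 4.19 and 1.17 in wild-type cells.

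The heme effect was tested for a difference between the genotypes with limma's interaction contrast. It was smaller in knockout than in wild-type cells by 3.46 ± 0.44 log2 units for Ppbp (difference of effects −3.46, 95% interval −4.40 to −2.53; adjusted p = 0.00126). For Cxcl5 the difference of effects was −6.11 ± 1.28 (95% interval −8.87 to −3.36; adjusted p = 0.0375). The Ppbp call was kept in every alternative run, with adjusted p of at most 0.0132. The Cxcl5 call was lost with the replicate block over the LPS-treated arrays (−6.42; adjusted p = 0.061), after quantile normalisation (−5.04; 0.0505) and with only these 4 groups in the fit (0.105). It was also lost without any 1 albumin or knockout LPS array, wild-type LPS array a or b, wild-type heme array b or c, or knockout heme array c (0.062 to 0.105), and its size also rests on arrays listed at 0.

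For the other 3 members the difference of effects did not pass. It was −0.65 ± 0.68 for Cxcl1 (95% interval −2.11 to 0.817; adjusted p = 0.962) and −0.79 ± 0.73 for Cxcl2 (−2.36 to 0.785; adjusted p = 0.952). For Cxcl3 it was −1.13 ± 2.05 (adjusted p = 0.982). These intervals are wide, and they do not show that the effect was equal. The 2 members called lower compare with 0.707% of all genes, and 0.24% of genes were called higher.

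With LPS alone, no member was called between knockout and wild-type cells, in a comparison that called 0.00445% of genes. At an unadjusted p under 0.05, 2 members and 557 genes passed. Ppbp had −0.69, −1.19, −0.78 and −0.52 in knockout LPS cells, against 0.35, −0.43 and 0.08 in wild-type LPS cells. All knockout arrays were below all wild-type arrays, as they were for 1.47% of genes (difference −0.79 ± 0.32; adjusted p = 1). Cxcl5 was listed at 0 on all 4 knockout arrays, against 0, 2.86 and 4.62 in wild-type cells (−2.49 ± 0.93; adjusted p = 1). Levels of Cxcl1 and Cxcl2 averaged 7.72 ± 0.716 and 6.88 ± 0.689 in knockout LPS cells (SD, n = 4), against 7.11 ± 1.05 and 6.36 ± 0.0858 in wild-type LPS cells (SD, n = 3). Cxcl3 averaged 5.18 ± 2.70 in knockout LPS cells, against 4.90 ± 2.11 in wild-type LPS cells, and all 3 genes overlapped.

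With heme and LPS, Cxcl5 and Ppbp were the members that separated the genotypes. Cxcl5 had 0 to 3.01 in knockout cells (median 1.10) against 8.73 to 11.11 in wild-type cells (median 10.77), a difference of −8.61 ± 0.89 (adjusted p = 4.72e-05). Ppbp had −0.92 to 0.57 in knockout cells (median 0.00, an array listed at 0) against 3.83 to 4.78 in wild-type cells (median 3.95). The difference was −4.25 ± 0.30 (adjusted p = 2.34e-06). The highest knockout array was below the lowest wild-type array for both, as it was for 4.56% of all genes. Both calls were kept under every alternative run, with an adjusted p of at most 0.013.

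Cxcl1, Cxcl2 and Cxcl3 overlapped between the genotypes. Cxcl1 averaged 8.52 ± 0.568 in knockout cells (SD, n = 5) and 8.56 ± 0.303 in wild-type cells (SD, n = 3), and the fitted difference was −0.04 ± 0.47 (95% interval −1.05 to 0.975; adjusted p = 1). Cxcl2 averaged 8.77 ± 0.978 in knockout cells and 9.04 ± 0.842 in wild-type cells (difference −0.27 ± 0.51; adjusted p = 0.887). Cxcl3 averaged 7.29 ± 2.31 in knockout cells and 8.15 ± 0.616 in wild-type cells (−0.85 ± 1.42; adjusted p = 0.858). Thus 2 of 5 members were called lower in knockout cells, where 3.16% of all genes were called lower and 2.13% higher.

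Ordered by mean level over the 5 groups, each of Cxcl1, Cxcl2 and Cxcl3 was lowest with albumin, followed by LPS in wild-type cells, LPS in knockout cells, heme and LPS in knockout cells, and heme and LPS in wild-type cells. For these 3 genes the albumin group alone stood clear of its neighbour in that order, and every other pair of neighbours overlapped. For Cxcl5 and Ppbp it was the wild-type heme and LPS group alone that stood clear.

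**Figure D3:**
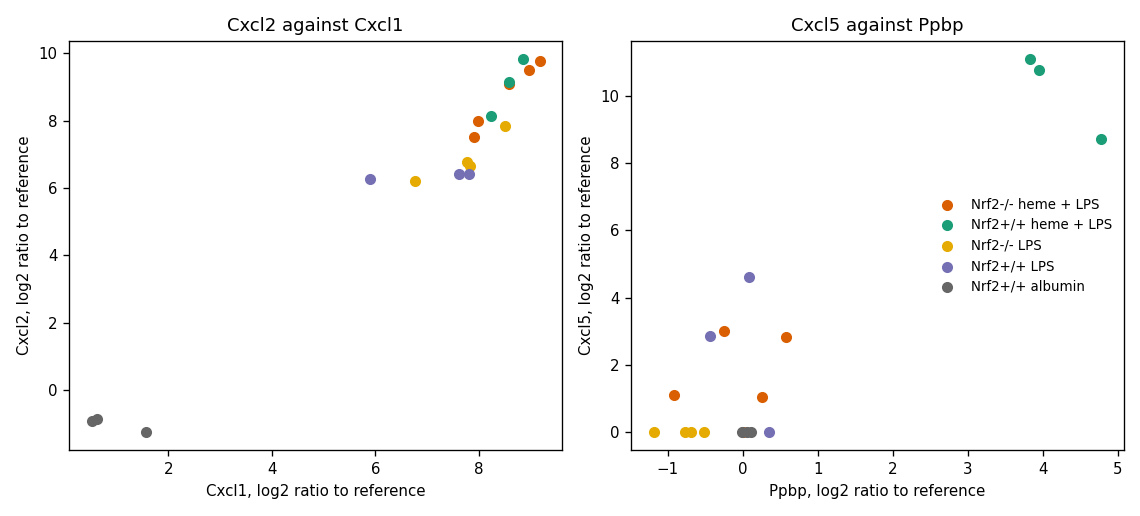
Log2 ratio of Cxcl2 against Cxcl1 and of Cxcl5 against Ppbp, 1 point per array, coloured by group. The LPS-treated arrays lie together at the upper right for Cxcl1 and Cxcl2, while for Ppbp and Cxcl5 the 3 wild-type heme and LPS arrays stand apart, at 3.83 to 4.78 and 8.73 to 11.11.

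The neighbouring cluster genes were measured too. Pf4, platelet factor 4, a CXC chemokine that lacks the Glu-Leu-Arg motif, lies next to Ppbp. It had 1.50, 1.38 and 1.79 in wild-type cells given heme and LPS, against 0.48, 0.31 and 0.36 in wild-type cells given LPS. The groups did not overlap, and Pf4 was 2.25-fold higher (1.17 ± 0.23; adjusted p = 0.00284). In knockout cells the heme difference was −0.03 ± 0.19 (adjusted p = 1), and between the genotypes with heme and LPS Pf4 was lower in knockout cells by a log2 difference of −1.50 ± 0.21 (adjusted p = 0.000484). For Pf4 the test of the difference of effects gave −1.19 ± 0.30 and did not pass (adjusted p = 0.0933). Cxcl15, or lungkine, which lies between Cxcl3 and Cxcl1, was listed at 0 on every array but 2 knockout LPS arrays, at 0.29 and −0.19.

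Genes that act before and after these chemokines were counted by list. Over all genes, 12.3% were called higher and 16.3% lower with LPS in wild-type cells, 8.34% higher and 6.35% lower with heme in wild-type cells, and 4.1% higher and 2.67% lower with heme in knockout cells. Of the 3 receptor genes, 1 was called lower with LPS in wild-type cells and none was called with heme in either genotype. That gene was Cxcr1, a receptor for chemokines of this kind (−0.99 ± 0.25; adjusted p = 0.0086), but 2 of its 3 LPS arrays were listed at 0, which may be unscored. Cxcr2 had a median of 0.00 in wild-type heme and LPS cells against 0.59 in wild-type LPS cells.

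Of 10 other CXC chemokines, 4 were called higher with LPS in wild-type cells and none lower: the interferon-induced Cxcl9 and Cxcl10 (5.61 and 9.48), Cxcl16 (1.38) and Cxcl17 (0.95). Cxcl17 was listed at 0 on all 3 LPS arrays, which may be unscored, against −0.95 on average in albumin cells. With heme before LPS, 1 rose in wild-type cells (Pf4) and 1 fell, Cxcl9, a T-cell attractant (−3.97 ± 0.61). None changed with heme in knockout cells. With heme and LPS, Cxcl9 was higher in knockout than in wild-type cells by 3.37 ± 0.54. Its difference of heme effects was 3.15 ± 0.79 and did not pass (adjusted p = 0.0933). Among 12 cytokines that act in neutrophil recruitment, 6 rose with LPS in wild-type cells and none fell, led by Il6 (10.96), Il1b (7.27), Il1a (6.57) and Tnf (4.74), cytokines that activate the vessel wall. Il6 and Il1a were listed at 0 on all 3 albumin arrays. Heme raised 1 of the 12 in wild-type cells, Il1f9, the array's name for the epithelial and myeloid cytokine IL-36 gamma (3.24 ± 0.49), and none in knockout cells. A count of 1 in 12 is about the 8.34% of all genes called higher. The heme effect on Il1f9 was smaller in knockout cells (−3.34 ± 0.64; adjusted p = 0.021). However, it was listed at 0 on 3 of 5 knockout heme and LPS arrays and 3 of 4 knockout LPS arrays. The same held for 1 of 3 wild-type LPS arrays, and such values may be unscored.

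Among the TLR4 receptor and adaptor genes, 11 of 12 were measured and 5 rose with LPS, led by the kinase gene Irak2 (2.75) and the co-receptor gene Cd14 (2.50). Heme raised 2 in wild-type cells, the adaptor gene Ticam1 (1.06) and the ubiquitin ligase gene Traf6 (0.81), and lowered 3, among them the adaptor gene Myd88 (−1.39) and Irak2 (−1.03). In knockout cells it raised Ticam1 (0.84) and lowered Tlr4 (−0.69). Of 14 measured transcription factor genes of the NF-kB, AP-1 and C/EBP families and their partners, 10 rose with LPS, led by the NF-kB cofactor gene Nfkbiz (6.05), Rel (4.42), Cebpd (4.04) and Junb (3.80). Heme lowered 6 of the 14 in wild-type cells and raised 1. Those lowered included Fos (−3.66), Cebpd (−3.13 ± 0.22) and Egr1 (−2.35), and the one raised was Fosl1, the AP-1 subunit FRA-1 (4.03 ± 0.43). In knockout cells Fosl1 rose (2.82) and Jun (−1.05) and Cebpd (−0.70) fell, and the heme effect on Cebpd differed between the genotypes by 2.43.

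Chemokine mRNAs carry AU-rich elements, and of 13 genes for proteins that stabilise or degrade such mRNAs 8 rose and 2 fell with LPS, against 12.3% and 16.3% of all genes. Zfp36, the gene of tristetraprolin, which degrades them, rose (2.94), as did the RNase gene Zc3h12a (3.47) and the stabiliser gene Arid5a (3.83), while the Zfp36 relative Zfp36l2 fell (−4.21). Heme raised 1 of the 13 in wild-type cells, Elavl1, the gene of the stabilising protein HuR (1.26), and lowered the stabiliser genes Arid5a (−1.95) and Traf3ip2 (−1.59). None of the 13 changed with heme in knockout cells. Of 12 protease genes that can cleave chemokines, 2 rose and 1 fell with LPS, with Mmp13 at 6.47. With heme, 1 rose in wild-type cells (Elane, neutrophil elastase, 1.08) and 3 fell (Mmp13 −2.60, Ctss −0.93 and Ctsl −0.83). In knockout cells 1 also rose with heme (Elane, 0.98) and 2 fell (Ctss −0.75 and Ctsl −0.56). Of 9 measured genes for heparan sulfate carriers and enzymes, 3 rose and 1 fell with LPS, and heme lowered Sdc3 (−1.11) and Sdc4 (−0.87) in wild-type cells and Hs2st1 (−0.29) in knockout cells. Each list had been drawn up from known functions with earlier results of these data in view.

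Genes whose level followed each member over the 18 arrays were sought among 1484 candidates, those with an SD of at least 1 and a listing at 0 on at most 9 arrays, by Pearson's r. The arrays share 5 treatment groups, so such values describe the groups as much as the genes. Cxcl1 was followed by Cxcl2 (r = 0.979), Socs3 (0.973), Ptgs2 (0.969), Osm (0.966) and Ccl3 (0.965). Ppbp was followed by Gss, the gene of glutathione synthetase (0.976), Gbe1 (0.962), Unc5b (0.954), Rhob (0.941) and Ptgr1 (0.932). Cxcl5 was followed by Tbcel (0.931), Mturn (0.930), Il1f9 (0.928), Lypd6b (0.926) and Gss (0.923). Nearest to Cxcl2 were Cxcl1 (0.979), Ttc39c (0.974), Socs3 (0.964), Tnf (0.963) and St7 (0.958). Nearest to Cxcl3 were Ppfibp2 (0.933), Flrt3 (0.927), Arg2 (0.913), Osm (0.885) and Cxcl1 (0.871).

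Markers of other cells that a marrow culture could hold were read beside the members. A ratio to a macrophage pool cannot show a marker's absolute level. Of 11 measured platelet and megakaryocyte markers, which bear on Ppbp and Pf4, 2 were called higher with heme in wild-type cells (Pf4 and Treml1) and none in knockout cells. Over all genes, 8.34% were called higher with heme in wild-type cells and 4.1% in knockout cells. Pf4 is itself 1 of these 11 markers, in the counts and in the list means. Their mean log2 ratio per array was −0.46 to 0.29 in knockout heme and LPS cells and 0.01 to 0.36 in wild-type heme and LPS cells, against −0.27 to −0.06 in knockout LPS cells and −0.42 to 0.02 in wild-type LPS cells. The platelet glycoprotein gene Gp9 was listed at 0 on all 3 arrays of both the wild-type heme and LPS and the wild-type LPS groups. Treml1 was below the macrophage pool in wild-type heme and LPS cells (−1.31 to −1.13) and lower still in wild-type LPS cells (−3.72 to −1.87). Gp9 and Treml1 were picked from the list after their values were seen. Set against albumin, 2 of the 11 were called higher with heme and LPS in wild-type cells, Pf4 among them, and 2 lower. The others called in that comparison were Treml1 and the integrin genes Itga2b and Itgb3. Of all genes, 12.9% were called higher in that comparison.

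Of 14 neutrophil markers, 2 rose (Elane and S100a8) and 1 fell (Cebpe) with heme in wild-type cells, and 1 rose (Elane) in knockout cells. Over all genes, 8.34% rose and 6.35% fell with heme in wild-type cells, and 4.1% rose and 2.67% fell in knockout cells. A count of 1 in a list of 12 or 14 is near these shares. The neutrophil list averaged 0.43 to 0.84 in knockout heme and LPS cells and 0.30 to 0.79 in wild-type heme and LPS cells, against 0.04 to 0.43 and 0.08 to 0.54 in the LPS cells of the same genotypes. Of 12 stromal and epithelial markers, which bear on Cxcl5, 1 was called higher (Acta2) and 1 lower (Dcn, listed at 0 on all 3 heme arrays) with heme in wild-type cells, and Acta2 was called higher in knockout cells too (1.13). That list averaged 0.22 to 1.07 in knockout heme and LPS cells and 0.13 to 0.50 in wild-type heme and LPS cells, against 0.04 to 0.81 in knockout LPS cells and −0.35 to 0.62 in wild-type LPS cells. The 9 measured macrophage markers averaged −0.79 to −0.39 in wild-type heme and LPS cells, against 0.48 to 0.62 in wild-type LPS cells, and −0.28 to 0.44 in knockout heme and LPS cells, against 0.17 to 0.71 in knockout LPS cells. The part of any of these shifts in the chemokine values was not tested.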

How the data were processed

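The deposited values were one log10 ratio per feature and array, Cy5 over Cy3, extracted with Agilent Feature Extraction 10.5.1.1, per the submitters' processing notes. The log10 base was inferred from the values, and the authors' background and dye correction are not stated. Of 44397 features, 33026 had 1 gene symbol and were used. Ratios were turned to log2, and a gene's level was the mean of its probes. Every array was kept, exact zeros as deposited.

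One limma 3.58.1 model (R 4.3.3) gave each of the 5 groups a mean. Tests were two-sided, with Benjamini-Hochberg adjustment over 22485 genes, and the threshold for a call was an adjusted p of 0.05. The design text calls the replicates independent, but groups share replicate letters, and p-values measure the spread between these samples. The number of arrays limits the precision. On simulated data for the wild-type heme comparison (21999 genes, 200 of them changed) 40% of 2-fold and 83% of 4-fold changes were called, and 3.91% of calls were false. In the real comparison 8.34% of genes were called higher and 6.35% lower, a larger share than was changed in the simulation. The simulated rates may therefore differ from those in these data.

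The main tests did not pair arrays, and the replicate letters were used only in alternative runs. Letters were judged to mark pairs where the deviations of same-letter arrays correlated over 0.1 in every pair. They did for heme in knockout cells (0.22 to 0.59) and for knockout against wild type (0.20 to 0.58), but not for heme in wild-type cells (as low as 0.01). In knockout cells, however, heme arrays b and c correlated more with an LPS array of another letter. Heme differences by letter in wild-type cells therefore only set arrays side by side.

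The alternatives were exact zeros as missing, quantile normalisation, array weights, other fits and probe rules, the replicate block, and leaving out arrays. The block over the LPS-treated arrays was added after seeing the data. The members, lists and named genes (up to 4 called per list, the 5 most correlated with each member among genes with an SD of at least 1 and at most 9 arrays at 0) were chosen with earlier results of these data known. Motif letters, Treml1, Gp9 and Cxcr2 were picked after their values were seen.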

Additional observations from a re-analysis of the deposited data

Results flagged for a closer look

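Cxcl3 in knockout LPS cells had 1 array far from the others: array a had a log2 ratio of 1.14, against 6.29 to 6.70 on the other arrays of the group. Of the 9 member groups with 4 or 5 arrays that could be examined in this way it was the only one. By chance about 1 in 20 such groups would be flagged, so 1 flag among 9 groups can arise by chance. In knockout cells given heme and LPS (3.51) and in wild-type LPS cells (2.49) array a was likewise the lowest for Cxcl3, but in wild-type heme and LPS cells it was not (8.49).

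The heme effect differed between the genotypes for Ppbp, by a log2 difference of -3.46, and for Cxcl5, by -6.11, each by limma's test of the difference itself (adjusted p = 0.00126 and 0.0375). By letter, the knockout heme effect was 0.27 to 1.03 for Ppbp and 0.00 to 3.01 for Cxcl5, and the wild-type effect was 3.87 to 4.44 for Ppbp and 6.15 to 8.73 for Cxcl5.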

How the results depend on the processing

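Over the 35 member results, 976 of 1033 values under alternatives kept their direction and their side of the threshold, and 19 changed sign. Some alternatives could not move a member's difference. Each member had 1 probe and every array a median of 0, so other probe rules and median centring left member values unchanged. Leaving out an array of a group not compared also left the difference unchanged. The count of 976 therefore overstates how stable the results were. With only the groups compared, 1545 genes were called for heme in wild-type cells, 752 for heme in knockout cells, 116 for the difference of effects, 0 for genotype with LPS and 317 for genotype with heme and LPS, where the model of all arrays called 3303, 1523, 213, 1 and 1189. With array weights these counts were 5340 for heme in wild-type cells, 879 for the difference of effects and 2124 for genotype with heme and LPS. With the replicate block, 0 genes were called for genotype with LPS, and over the LPS-treated arrays alone 0 again and 141 for the difference of effects; without the arrays of letter a, 6 were called for genotype with LPS. Leaving out single arrays gave 951 to 1778 genes for heme in knockout cells (951 without LPS array a), 135 to 323 for the difference of effects (135 without wild-type LPS array b, 323 without knockout heme array b) and 1 to 3 for genotype with LPS (3 without wild-type LPS array a).

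Of the members, 0 were called for heme in knockout cells with only the groups compared, with either replicate block or without the arrays of letter a, and 0 to 2 with single arrays left out. For the difference of effects 1 was called, Ppbp, with zeros as missing, after quantile normalisation, with only the groups compared and with the block over the LPS-treated arrays, and 1 to 2 with single arrays left out. Against albumin, 3 members were called for heme and LPS with zeros as missing, as Cxcl3 and Cxcl5 then have no albumin value. The block also brought Cxcl5 for LPS against albumin past the threshold (adjusted p = 0.0383), though the letters do not pair those arrays, and apart from this, the Cxcl2 call for heme in knockout cells and the Cxcl5 call for the difference of effects, neither block changed a member's call.

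The values that changed sign were all short of the threshold. Ppbp for LPS against albumin was 0.0095 after quantile normalisation and -0.227 to 0.163 with single arrays left out. For genotype with LPS, Cxcl3 was -0.148 with array weights, -0.238 with either block and -0.923 to 1.63 with single arrays left out, and its difference of effects was -2.48 to 0.0691. For genotype with heme and LPS, single arrays left out gave -0.199 to 0.118 for Cxcl1, -0.716 to 0.121 for Cxcl2 and -1.26 to 0.0918 for Cxcl3, and without the arrays of letter a they were 0.239, 0.319 and 0.266. The cause was not tested. Values listed at 0 limit what can be said of Cxcl3 and Cxcl5, and signal over background was not used here. Groups listed wholly at 0 had no spread, which made the pooled error of both genes smaller.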
